A study of Mus musculus with 6 samples.

Results

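Csn1s1, Csn2, Csn1s2a, Csn1s2b and Csn3, the 5 caseins of the mouse, were examined in mammary epithelial cells (MECs) by RNA-seq. They were taken by gene symbol from the count table, which lists 55487 genes. All 5 passed the filter on low counts, as did 17165 genes in total, but Csn1s2b would not have passed on its wild-type counts alone. MECs came from 3 wild-type (genotype WT) and 3 IL-21isoTg female BALB/c mice, all 10 weeks old, and each library was made from 1 mouse. IL-21isoTg mice carry a transgene for a membrane-bound isoform of the cytokine IL-21 that, by the study's account, is expressed in T cells. According to the study's methods the mice were virgin and their estrous stages were randomized. MECs were enriched from digested mammary tissue by magnetic depletion of leukocytes (CD45), endothelial cells (CD31) and fibroblasts (CD140a), with no positive selection for an epithelial marker, so other cells of the tissue could remain. Nothing in the labels states a batch or a litter, and the number of a mouse is only its name.

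Caseins are the main proteins of milk and carry calcium phosphate in micelles. Csn1s1 (αS1-casein), Csn2 (β-casein) and the αS2-type genes Csn1s2a and Csn1s2b encode calcium-sensitive caseins, whereas Csn3 encodes κ-casein, which coats the micelle and keeps it in solution. In the mammary gland, prolactin acts through JAK2 and STAT5 to drive casein transcription, together with glucocorticoid receptor, C/EBPβ, NFI factors and ELF5. The genes are best known for their induction in pregnancy and lactation, and virgin glands carry much less of their mRNA.

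All 5 genes lie within 266 kb of chromosome 5 of GRCm38, between 87666208 and 87932665, and the deposited coordinates of all 5 were those of the GENCODE M21 annotation. Csn1s1 (ENSMUSG00000070702, 87666208 to 87682578, plus strand) is followed after 10.0 kb by Csn2 (ENSMUSG00000063157, 87692624 to 87699630), the only one of the 5 on the minus strand. Csn1s2a (ENSMUSG00000061937, 87774567 to 87788797) and Csn1s2b (ENSMUSG00000061388, 87808082 to 87824426) are 19.3 kb apart. Csn3 (ENSMUSG00000001622, 87925579 to 87932665) lies 101 kb beyond them. The longest transcripts that GENCODE tags as principal isoforms have mRNAs of 1411, 1329, 920, 810 and 1596 bases, in the order Csn1s1, Csn2, Csn1s2a, Csn1s2b and Csn3.

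Promoter sequences from RefSeq on GRCm38.p6 were found for 3 of the 5 genes, Csn1s1, Csn2 and Csn1s2a. They are shown because these genes share a regulator by background knowledge and were higher together in the same mice. The 250 bases before the RefSeq start site are printed, 5′ to 3′ on the strand of the gene, with capitals at each match to TTCNNNGAA, the palindromic core to which STAT5 binds. They span chr5:87665958-87666207 for Csn1s1, chr5:87699426-87699675 on the minus strand for Csn2 and chr5:87774200-87774449 for Csn1s2a.
Csn1s1: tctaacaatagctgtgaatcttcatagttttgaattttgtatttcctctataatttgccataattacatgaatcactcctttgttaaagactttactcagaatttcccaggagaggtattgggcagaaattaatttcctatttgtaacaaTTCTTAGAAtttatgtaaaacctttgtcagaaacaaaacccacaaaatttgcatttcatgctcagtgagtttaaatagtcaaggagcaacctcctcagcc
Csn2: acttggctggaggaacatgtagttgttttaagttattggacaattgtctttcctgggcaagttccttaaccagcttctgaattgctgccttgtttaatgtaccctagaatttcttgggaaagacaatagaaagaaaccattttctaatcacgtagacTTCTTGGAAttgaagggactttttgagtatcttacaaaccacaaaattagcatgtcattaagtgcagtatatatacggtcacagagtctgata
Csn1s2a: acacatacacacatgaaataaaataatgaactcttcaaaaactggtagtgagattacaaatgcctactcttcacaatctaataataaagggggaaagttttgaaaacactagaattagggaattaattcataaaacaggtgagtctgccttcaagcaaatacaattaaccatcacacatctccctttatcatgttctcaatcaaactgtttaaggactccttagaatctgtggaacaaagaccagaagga

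The 3 stretches had a GC content of 32.8%, 36.8% and 34.0%, against a median of 52.4% over all 32851 promoters of the table. Within the 250 bases, TTCNNNGAA occurred in 2 of the 3, against 7.02% of all promoters. The RefSeq start of Csn1s2a lies 117 bases before the first base that GENCODE gives for the gene. For this motif alone the window was extended to 50 bases past the RefSeq start, 300 bases in all. In it each of the 3 genes had 1 match, against 8.30% of all promoters. The match of Csn1s2a lay in the 50 bases added, so the third match rests on this choice of window. The other motifs were not searched in the longer window. The 3 matches are shown with 10 bases on each side.
Csn1s1 site: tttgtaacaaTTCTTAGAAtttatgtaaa
Csn2 site: tcacgtagacTTCTTGGAAttgaagggac
Csn1s2a site: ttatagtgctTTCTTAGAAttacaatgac
The first base of the match lay 100 bases before the start of Csn1s1 in both annotations. It lay 93 bases before the RefSeq start of Csn2, inside the gene as GENCODE delimits it, and 97 bases before the GENCODE start of Csn1s2a, which is 20 bases after the RefSeq start of that gene. Of the other motifs searched on both strands of the 250 bases, the octamer ATGCAAAT was found in 1 of the 3 (Csn1s1, on the opposite strand) and in 1.601% of all promoters. The C/EBP-type motif TTNCNNAA was found in 3 of 3 and in 36.8% of all promoters, and the ETS core GGAA, which ELF5 recognizes, in 3 of 3 and in 93.4%, and 1 of the GGAA matches of Csn2 lies within its TTCNNNGAA match. The NFI half-site TTGGC was found in 1 of the 3 (Csn2) and in 41.5% of all promoters. The glucocorticoid receptor half-site TGTTCT was found in 1 of the 3 (Csn1s2a) and in 16.1% of all promoters, and TATAAA in 0 of the 3 and in 12.4%. Matches are descriptions of letters and not of binding.

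Libraries held 15902886 to 25719244 counts. Levels are given as CPM, counts scaled by the TMM-normalized library size, and the floor of 3 counts per library lies at 0.112 to 0.280 CPM, a limit set by counting error alone. Il21, the gene of the transgene, had 0, 0 and 37 counts in wild-type mice 1, 2 and 3 against 795, 216 and 131 in IL-21isoTg mice 1, 2 and 3, and the counts of wild-type mouse 3 were above the floor. Salivary gland genes, a list of 15, made up 22.9%, 6.57% and 15.7% of all counts in wild-type mice 1, 2 and 3 against 22.4%, 4.89% and 40.9% in IL-21isoTg mice 1, 2 and 3. Luminal epithelial genes were measured at high level in every mouse, with Krt8, Krt18 and Epcam together at 3767 to 5481 CPM in wild-type and 3496 to 5730 CPM in IL-21isoTg MECs. How much of the Krt8, Krt18 and Epcam counts came from salivary gland cells was not tested. Wild-type mouse 3 stood apart in Il21 and IL-21isoTg mouse 3 in salivary genes.

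The caseins together were higher in every IL-21isoTg mouse than in any wild-type mouse. Their summed level was 440.0, 472.4 and 1606 CPM in wild-type mice 1, 2 and 3 and 17499, 14320 and 7773 CPM in IL-21isoTg mice 1, 2 and 3. The lowest IL-21isoTg value was thus 4.84 times the highest wild-type value. As a share of all counts this was 0.0438%, 0.0578% and 0.178% against 1.64%, 1.67% and 0.524%. The mean log2 level was 9.44 ± 1.05 (SD, n = 3 mice) in wild-type and 13.6 ± 0.610 (SD, n = 3) in IL-21isoTg MECs, a difference of 4.17 on the log2 scale (exact permutation test, two-sided, p = 0.1, the lowest value possible for groups of 3). With the salivary list taken out of the library size, the difference was 4.20, and relative to the counts of Krt8, Krt18 and Epcam it was 4.15. Per 1000 counts of these 3 epithelial genes, the caseins had 80.3, 125 and 361 counts in wild-type mice 1 to 3 against 5005, 2499 and 1616 in IL-21isoTg mice 1 to 3. In bulk RNA, more casein mRNA per cell and more cells that carry it cannot be told apart.

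**Figure D1:**
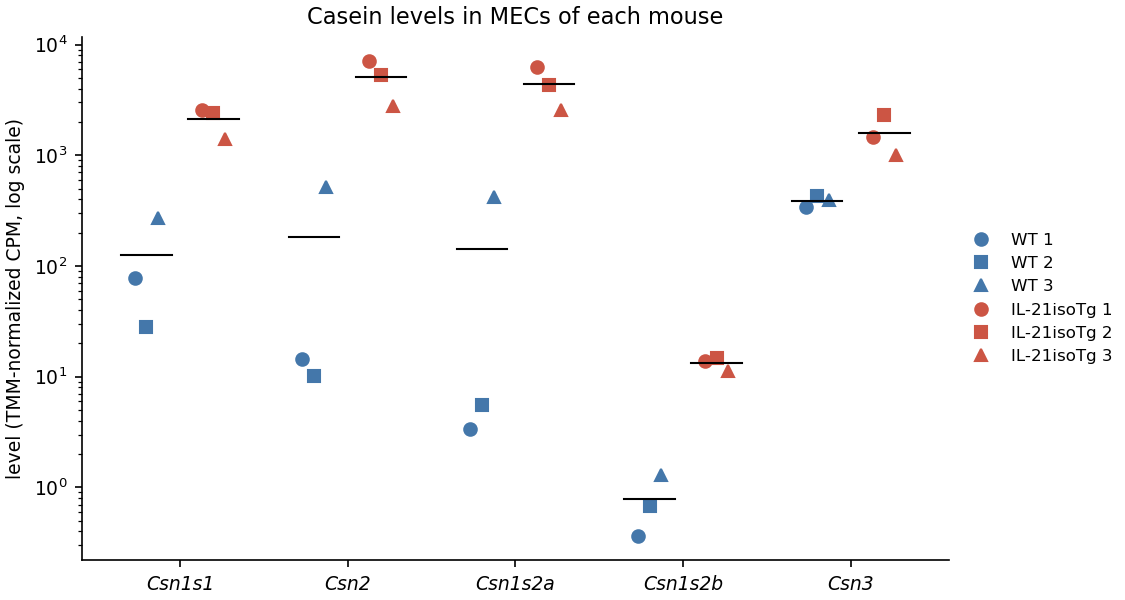
Level of each casein in TMM-normalized CPM (log axis) in the 6 mice, with circles, squares and triangles for mice 1, 2 and 3 of each genotype and bars for the mean of 3 mice. For every casein the 3 IL-21isoTg mice lie above the 3 wild-type mice, and wild-type mouse 3 lies far above wild-type mice 1 and 2 for Csn2 and Csn1s2a but not for Csn3.

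Csn2 was the casein with the most counts in every IL-21isoTg mouse. It had 321, 209 and 11565 counts in wild-type mice 1, 2 and 3, or 14.5, 10.0 and 520.4 CPM, and 172573, 142771 and 29866 counts in IL-21isoTg mice 1, 2 and 3, or 7175, 5315 and 2785 CPM. The wild-type mice differed among themselves by 51.8-fold in CPM, and the lowest IL-21isoTg mouse was 5.35 times the highest wild-type mouse. The log2 fold change was 4.81 (standard error 1.51, unadjusted p = 0.0129, adjusted p = 0.809 over 17165 genes; edgeR, quasi-likelihood).

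Csn1s2a, the more abundant αS2-type casein, followed Csn2 over the 6 mice. Its counts were 74, 115 and 9268 in wild-type and 150841, 115920 and 27571 in IL-21isoTg MECs, or 3.34, 5.53 and 417 CPM against 6271, 4315 and 2571 CPM. The spread among wild-type mice was 125-fold, the widest of the 5 caseins, and wild-type mouse 3 lay far above the other two. The log2 fold change was 4.95 (standard error 1.73, unadjusted p = 0.0215, adjusted p = 0.809).

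Csn1s1 had 1731, 579 and 6017 counts in wild-type mice 1, 2 and 3, or 78.1, 27.8 and 271 CPM, and 62056, 64119 and 15032 counts in IL-21isoTg mice 1, 2 and 3, or 2580, 2387 and 1402 CPM. Wild-type mouse 3 was again the highest of the wild-type mice, here by 9.73-fold over the lowest. The log2 fold change was 4.08 (standard error 0.80, unadjusted p = 0.000939, adjusted p = 0.489).

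Csn1s2b, the αS2-type gene next to Csn1s2a, was low in wild-type MECs. It had 8, 14 and 29 counts there, or 0.361, 0.673 and 1.30 CPM, and 336, 393 and 121 counts in IL-21isoTg MECs, or 14.0, 14.6 and 11.3 CPM. The IL-21isoTg mice lay within 1.30-fold of each other in CPM, and the lowest of them was 8.65 times the highest wild-type mouse, the widest gap of the 5 caseins. The log2 fold change was 4.08 (standard error 0.45, unadjusted p = 1.92e-05, adjusted p = 0.126), and its unadjusted p ranked 2 among the 17165 genes tested. With 8 counts in wild-type mouse 1, the gene passed the filter on low counts only with the help of the IL-21isoTg mice. Its rank is therefore a description and not separate evidence of a difference.

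Csn3 had the highest CPM of the 5 caseins in wild-type mice 1 and 2 and the smallest log2 fold change. In wild-type mouse 3, Csn2 and Csn1s2a were above it. It had 7621, 8915 and 8806 counts in wild-type mice 1, 2 and 3, or 344, 428 and 396 CPM, within 1.25-fold of each other. The IL-21isoTg mice had 35085, 61486 and 10762 counts, or 1459, 2289 and 1004 CPM, and the lowest of them was 2.34 times the highest wild-type mouse. Wild-type mouse 3, the highest wild-type mouse for each of the other 4 caseins, lay between wild-type mice 1 and 2 for Csn3. The log2 fold change was 2.02 (standard error 0.33, unadjusted p = 0.000269, adjusted p = 0.355).

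Of the 5 caseins, 0 passed an adjusted p under 0.05 in the quasi-likelihood test of edgeR, in which 0.00% of the genes were called higher and 0.00% lower. At an unadjusted p under 0.05 all 5 were higher, where 548 genes or 3.19% of those tested were higher and 451 genes or 2.63% lower. In all 5 the 3 IL-21isoTg mice lay above the 3 wild-type mice, where 5.54% of the genes tested did, and 6.54% lay below. The median log2 fold change of the 5 caseins was 4.08, against -0.02 over all genes tested, and 4 of the 5 were at least 16-fold higher (a log2 fold change of 4), as were 0.0874% of all genes. All 5 were at least 4-fold higher, as were 0.414%. DESeq2's Wald test called Csn1s2b (adjusted p = 4.14e-17), Csn3 (adjusted p = 6.58e-08) and Csn1s1 (adjusted p = 0.00154), with 0.437% of genes called higher and 0.0546% lower, and left Csn2 and Csn1s2a at adjusted p-values of 0.0654 and 0.275. The likelihood ratio test of edgeR called the same 3 caseins (Csn1s1, Csn1s2b and Csn3), with 0.303% of genes called higher and 0.0757% lower. With no filter on low counts the quasi-likelihood test called Csn1s2b and Csn3, with 0.0485% of genes called higher. Without wild-type mouse 3, the quasi-likelihood test called Csn1s2a (log2 fold change 9.95, adjusted p = 0.0252), Csn2 (8.70, adjusted p = 0.0252) and Csn1s2b (4.68, adjusted p = 0.0403), and 3 of the 6 genes called in that fit were caseins, with 0.0336% of genes called higher. In the same fit Csn1s1 stood at 5.32 on the log2 scale (adjusted p = 0.112) and Csn3 at 2.04 (adjusted p = 0.756). Wild-type mouse 3 was the highest wild-type mouse for every casein except Csn3, so larger fold changes of those genes without it follow from its own values. Leaving out wild-type mouse 1 or wild-type mouse 2 instead called 0 genes. Leaving out IL-21isoTg mouse 3, the library with the largest salivary share, gave log2 fold changes of 4.32, 5.12, 5.23, 4.19 and 2.27 in the order Csn1s1, Csn2, Csn1s2a, Csn1s2b and Csn3, none of them called (adjusted p = 0.169 to 0.923).

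**Figure D2:**
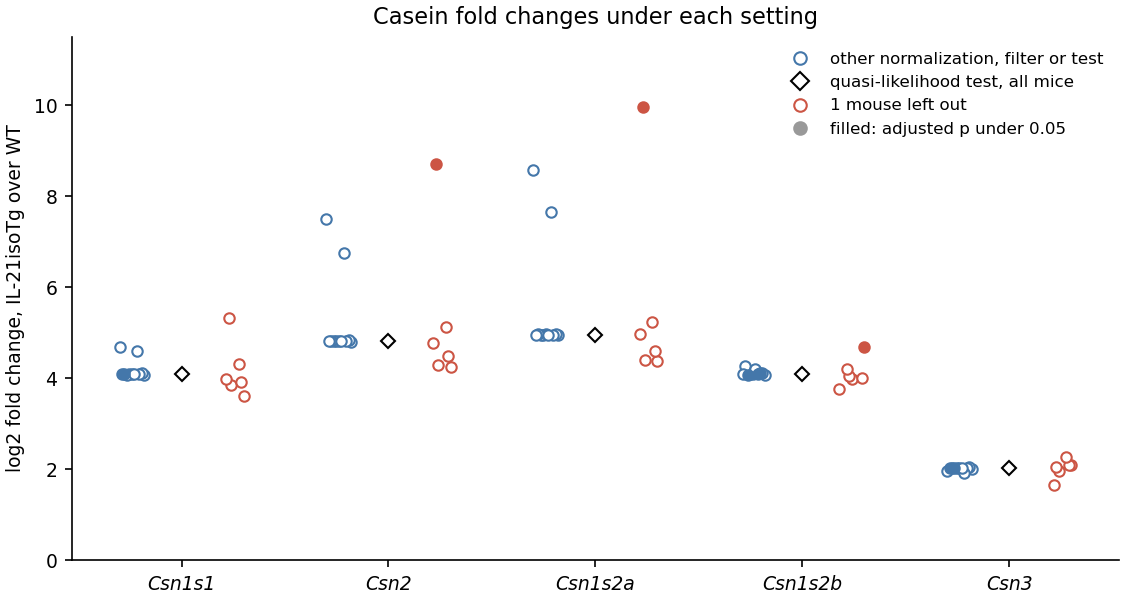
Log2 fold change of each casein (IL-21isoTg over wild-type) in the quasi-likelihood fit with all mice (diamond), under other normalizations, filters, tests or the replicate block (blue), and with 1 mouse left out (red); filled symbols have an adjusted p under 0.05. Values of Csn3 stay near 2, while those of Csn2 and Csn1s2a reach 8.70 and 9.95 without wild-type mouse 3.

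The make-up of the casein counts also differed between the mice. A share within the caseins does not depend on library size, and the counts of the salivary list do not enter it. Whether salivary gland cells carried casein mRNA was not tested. In wild-type mice 1 and 2, Csn3 made up 78.1% and 90.7% of casein counts, and Csn2 and Csn1s2a together added little, with 3.29% and 2.13% for Csn2 and 0.759% and 1.17% for Csn1s2a. In wild-type mouse 3 the shares of Csn3, Csn2 and Csn1s2a were 24.7%, 32.4% and 26.0%. In the IL-21isoTg mice Csn3 made up 8.34%, 15.98% and 12.9%, Csn2 41.0%, 37.1% and 35.8%, and Csn1s2a 35.8%, 30.1% and 33.1%. Wild-type mouse 3 therefore lay between the other wild-type mice and the IL-21isoTg mice for all 3 genes, closer to the latter. It was also the only wild-type mouse with Il21 counts (37), and the cause of its position was not tested.

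**Figure D3:**
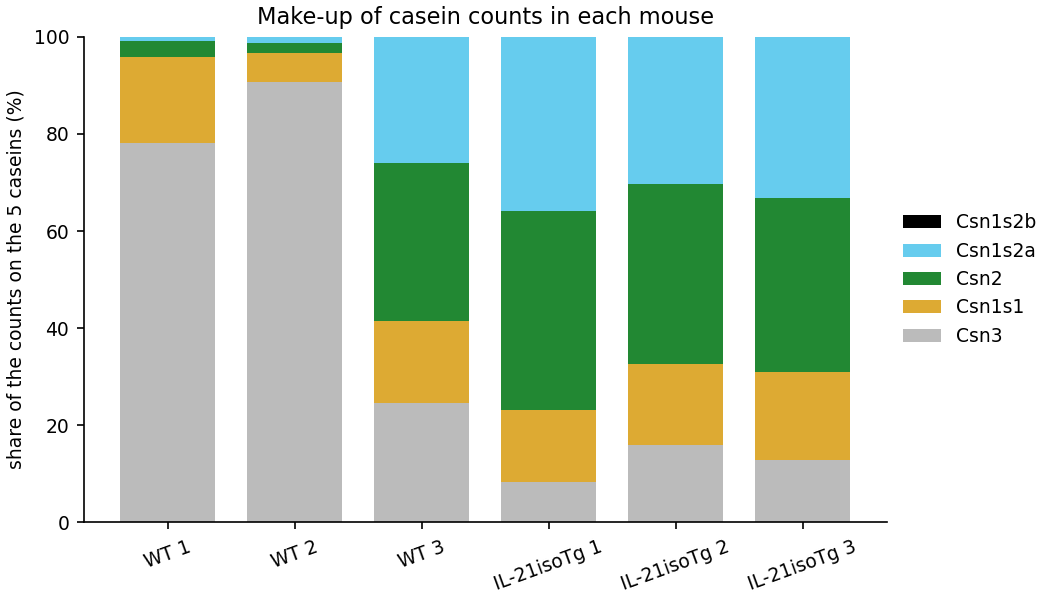
Share of each casein in the counts of the 5 caseins, as a stacked bar for each mouse that adds up to 100%; Csn1s2b, with at most 0.145%, is too small to be seen. Csn3 fills most of the bars of wild-type mice 1 and 2, and Csn2 with Csn1s2a fills most of the bars of wild-type mouse 3 and the 3 IL-21isoTg mice.

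The mean share of Csn3 was 64.5% ± 35.0 (SD, n = 3 mice) in wild-type and 12.4% ± 3.85 (SD, n = 3) in IL-21isoTg MECs, a difference of -52.1 percentage points. The mean share of Csn2 went from 12.6% ± 17.2 to 38.0% ± 2.69 and that of Csn1s2a from 9.30% ± 14.4 to 33.02% ± 2.85. For each of these 3 caseins the genotypes were apart, without overlap (exact permutation test, two-sided, p = 0.1 each, adjusted over the 5 shares p = 0.167). The 5 shares are parts of the same total in each mouse, so a fall of Csn3 and rises of the others are not independent. How often shares of other genes had groups without overlap was not computed. The share of Csn1s1 was 17.7%, 5.89% and 16.9% in wild-type and 14.7%, 16.7% and 18.0% in the IL-21isoTg mice, which overlapped (exact permutation test, p = 0.7). The share of Csn1s2b was 0.0820%, 0.142% and 0.0813% against 0.0798%, 0.102% and 0.145%, and also overlapped (exact permutation test, p = 0.7).

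Ratios of counts between pairs of caseins in the same mouse were compared between the genotypes. Of 10 pairs, 7 had groups that did not overlap (exact permutation test, p = 0.1 each, adjusted over the 10 pairs p = 0.143). All 4 ratios to Csn3 were among the 7. The 10 ratios are built from 5 genes and are not independent of each other. How often pairs of other genes had groups without overlap was not computed. The ratio of Csn2 to Csn3 was 0.0421, 0.0234 and 1.31 in wild-type mice 1, 2 and 3 against 4.92, 2.32 and 2.78 in IL-21isoTg mice 1, 2 and 3, a difference of 4.86 in mean log2 ratio. The ratio of Csn1s2b to Csn3 had a difference of 2.33 in mean log2 ratio, and that of Csn1s1 to Csn3 a difference of 2.67. The pairs whose groups overlapped were those of Csn1s2b with Csn1s1, Csn2 and Csn1s2a (exact permutation test, p = 1.0, 0.3 and 0.3). Csn2 and Csn1s2a kept close to each other in the mice that had much of both, with 1.14, 1.23 and 1.08 counts of Csn2 for each count of Csn1s2a in the IL-21isoTg mice and 1.25 in wild-type mouse 3. In wild-type mice 1 and 2 that ratio was 4.34 and 1.82, at 74 and 115 counts of Csn1s2a.

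Between genes, levels were compared per kilobase of the principal mRNA. In each IL-21isoTg mouse the order was Csn1s2a, Csn2, Csn1s1, Csn3 and Csn1s2b, with means of 4767 ± 2012, 3831 ± 1658, 1505 ± 448, 992 ± 408 and 16.4 ± 2.19 CPM per kilobase (SD, n = 3 mice). The ranges of Csn1s2a and Csn2 overlapped over the 3 mice, as did those of Csn1s1 and Csn3, whereas Csn2 lay above Csn1s1 without overlap. With the shorter Csn2 transcript that starts at the RefSeq site (Csn2-201, 1117 bases), Csn2 lay above Csn1s2a in 1 of the 3 IL-21isoTg mice, so the order of these genes depends on the transcript taken. In wild-type mice 1 and 2 the order was Csn3, Csn1s1, Csn2, Csn1s2a and Csn1s2b, with Csn3 at 215 and 268 CPM per kilobase and Csn1s2a at 3.63 and 6.01. In wild-type mouse 3 it was Csn1s2a, Csn2, Csn3, Csn1s1 and Csn1s2b, with 453, 392, 248, 192 and 1.61 CPM per kilobase. Csn1s2b was the lowest in all 6 mice.

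By CPM, not corrected for length, Csn2 ranked 11, 7 and 26 among the 17165 genes tested in IL-21isoTg mice 1, 2 and 3 and 8173, 9507 and 162 in wild-type mice 1, 2 and 3. Csn3 ranked 289, 200 and 230 in the wild-type mice, so a casein was already among the abundant mRNAs there.

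Genes around the caseins were compared in the same way. Within 300 kb of the casein span the count table lists 35 other genes, of which 24 had no count in any mouse, 6 had at most 23 counts in a mouse and were not tested, and 5 were tested. These 5, Sult1d1, Odam, BC037156, 1700066N21Rik and Smr3a, had log2 fold changes of 0.74, 0.94, 0.86, 0.68 and 1.27. Their unadjusted p-values lay between 0.192 and 0.483, and the mice of the genotypes overlapped for each. Prr27, the next gene after Csn1s2b, had no count in any mouse. The long non-coding gene BC037156 lies between Csn1s2b and Csn3 and had 68840, 34734 and 42329 counts in the wild-type and 83999, 32531 and 79101 in the IL-21isoTg mice, and Smr3a, a salivary gland gene, had 290930, 43020 and 185707 against 368341, 48986 and 425426. In the wild-type mice Csn3 was highest in mouse 2, where Smr3a was lowest. The wild-type CPM of Csn3 lay within 1.25-fold of each other, however, and whether salivary gland cells added to Csn3 was not tested. The antisense transcript 1700066N21Rik runs across Csn3 but shares 0 bases of exon with it. Whether counting used strand is not given in the sources used here.

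**Figure D4:**
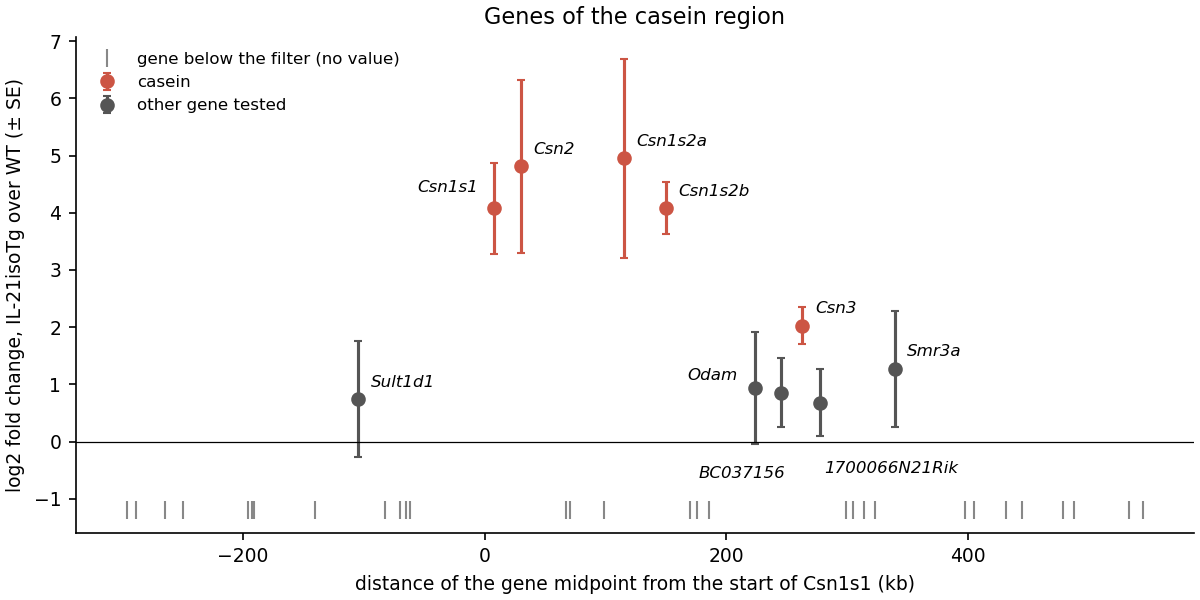
Log2 fold change (IL-21isoTg over wild-type, bars ± standard error) of the genes tested within 300 kb of the casein span, against the distance of the gene midpoint from the start of Csn1s1; ticks mark genes below the filter on low counts. The 4 calcium-sensitive caseins lie at 4.08 to 4.95, Csn3 at 2.02 and the other 5 genes at 0.68 to 1.27.

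The genes with the closest pattern were sought by the root-mean-square difference between log2 CPM profiles over the 6 mice, each centred on its mean. The profile nearest to Csn1s2a was that of Csn2 (0.69 log2 units), followed by Wap (0.92), which encodes whey acidic protein. For Csn2 the nearest was Fabp3 (0.67), a fatty acid binding protein, then Csn1s2a (0.69) and Il21 (0.81). Fabp3 had 11, 7 and 147 counts in the wild-type and 4151, 1986 and 618 in the IL-21isoTg mice. That wild-type mouse 3 was the highest of the wild-type mice follows from the choice of Fabp3 by its profile. Csn1s1 was nearest to Olah (0.31), a thioesterase of milk fatty acid synthesis, and Saa1 (0.38), a serum amyloid A. Csn1s2b was nearest to 1700012B07Rik (0.20) and had Lalba, the α-lactalbumin gene, at 0.33 and Gldc, glycine decarboxylase, at 0.67. Csn3 was nearest to Duoxa1 (0.26), the maturation factor of the hydrogen peroxide producing DUOX1, and Cyp24a1 (0.29), the vitamin D hydroxylase. Wild-type counts were 90, 72 and 96 for Duoxa1 and 59, 58 and 79 for Cyp24a1. Both genes were picked for a profile like that of Csn3, so their even wild-type counts follow from that choice. Csn2 and Csn3 themselves were 3.04 log2 units apart, and Csn1s2a and Csn3 3.62.

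Beside the caseins, 12 other milk components were all tested and all had a positive log2 fold change, 9 of them at an unadjusted p under 0.05 and 0 after adjustment (edgeR, quasi-likelihood). Their median log2 fold change was 1.55, and in 7 the IL-21isoTg mice lay above the wild-type mice without overlap. Over all genes tested, 3.19% were higher at an unadjusted p under 0.05 and 5.54% were higher without overlap. Wap had 1, 1 and 611 counts in wild-type mice 1, 2 and 3 against 24614, 11775 and 3177 in IL-21isoTg mice 1, 2 and 3 (log2 fold change 5.99, standard error 1.93, adjusted p = 0.809). For Glycam1, which encodes a mucin-like protein of milk, wild-type mouse 3 did not stand out, with 91.2, 34.4 and 67.5 CPM against 1646, 753 and 615 CPM (log2 fold change 3.96, standard error 0.51, adjusted p = 0.168). Lalba had 6.99, 15.9 and 32.5 CPM against 198, 249.8 and 133 CPM (log2 fold change 3.39, standard error 0.54, adjusted p = 0.355). The other 9 had log2 fold changes of 0.73 (Mfge8) to 2.04 (Btn1a1), with Xdh at 1.88, Trf at 1.72 and Cel at 1.38.

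Genes that act on casein after translation or supply its calcium were looked at next. Of 10, 9 were tested and 8 had a positive log2 fold change, with a median of 0.94. At an unadjusted p under 0.05, 4 were higher, as were 3.19% of all genes tested, and 0 were called after adjustment. Fam20c, the Golgi kinase that phosphorylates caseins, had 26.3, 11.1 and 21.01 CPM in the wild-type and 59.3, 50.0 and 61.6 CPM in the IL-21isoTg mice (log2 fold change 1.55, standard error 0.30, adjusted p = 0.478). Fam20a, which activates FAM20C, had 31.2, 12.7 and 19.8 CPM against 93.5, 73.1 and 89.1 CPM (log2 fold change 2.01, standard error 0.31, adjusted p = 0.355). For both genes the IL-21isoTg mice lay above the wild-type mice, and IL-21isoTg mouse 3 was not the lowest of its group, as it was for Csn2. Orai1, a subunit of a calcium entry channel, had 12.6 ± 3.57 against 20.6 ± 1.55 CPM (SD, n = 3; log2 fold change 0.71), and Slc34a2, a phosphate transporter, a log2 fold change of 1.06, both at an unadjusted p under 0.05. The groups of Slc34a2 overlapped, with 8.75, 13.1 and 7.06 CPM in the wild-type and 13.8, 12.5 and 34.4 CPM in the IL-21isoTg mice. Atp2b2, the apical calcium pump of lactating cells, had 1, 9 and 11 counts against 38, 30 and 5, which overlapped.

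Genes upstream of casein transcription were read from 2 lists. Of 16 genes that promote prolactin and STAT5 signalling or alveolar differentiation, 9 had a positive and 7 a negative log2 fold change, with a median of 0.08 and 0 called after adjustment. Prlr, the prolactin receptor, had 179, 796 and 781 CPM in the wild-type and 344, 533 and 348 CPM in the IL-21isoTg mice, so the groups overlapped (log2 fold change -0.52, standard error 0.51, adjusted p = 0.868). Stat5a and Stat5b had log2 fold changes of 0.21 and 0.13, Jak2 -0.02 and Nr3c1, the glucocorticoid receptor, 0.13. Elf5, the ETS factor of alveolar cells, was the 1 gene of the list at an unadjusted p under 0.05 that was higher, with 95.8, 128 and 130.7 CPM against 230.5, 201 and 142 CPM (log2 fold change 0.70, standard error 0.22, adjusted p = 0.809). Erbb4 and Tnfsf11, which encodes RANKL, were lower at an unadjusted p under 0.05, with log2 fold changes of -0.80 and -4.08. Of all genes tested, 3.19% were higher and 2.63% lower at that threshold. For Tnfsf11 wild-type mouse 1 alone had 600 counts, whereas the other wild-type mice had 36 and 23 and IL-21isoTg mice 1, 2 and 3 had 19, 14 and 4. Of 8 inhibitors, 5 had a positive and 3 a negative log2 fold change, with a median of 0.11 and 0 called after adjustment. Cish, a feedback target of STAT5, had 99.8, 56.0 and 71.8 CPM against 97.9, 105.9 and 156 CPM (log2 fold change 0.66, unadjusted p = 0.0375, adjusted p = 0.809), and Socs2 a log2 fold change of 0.99 with overlapping groups.

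**Figure D5:**
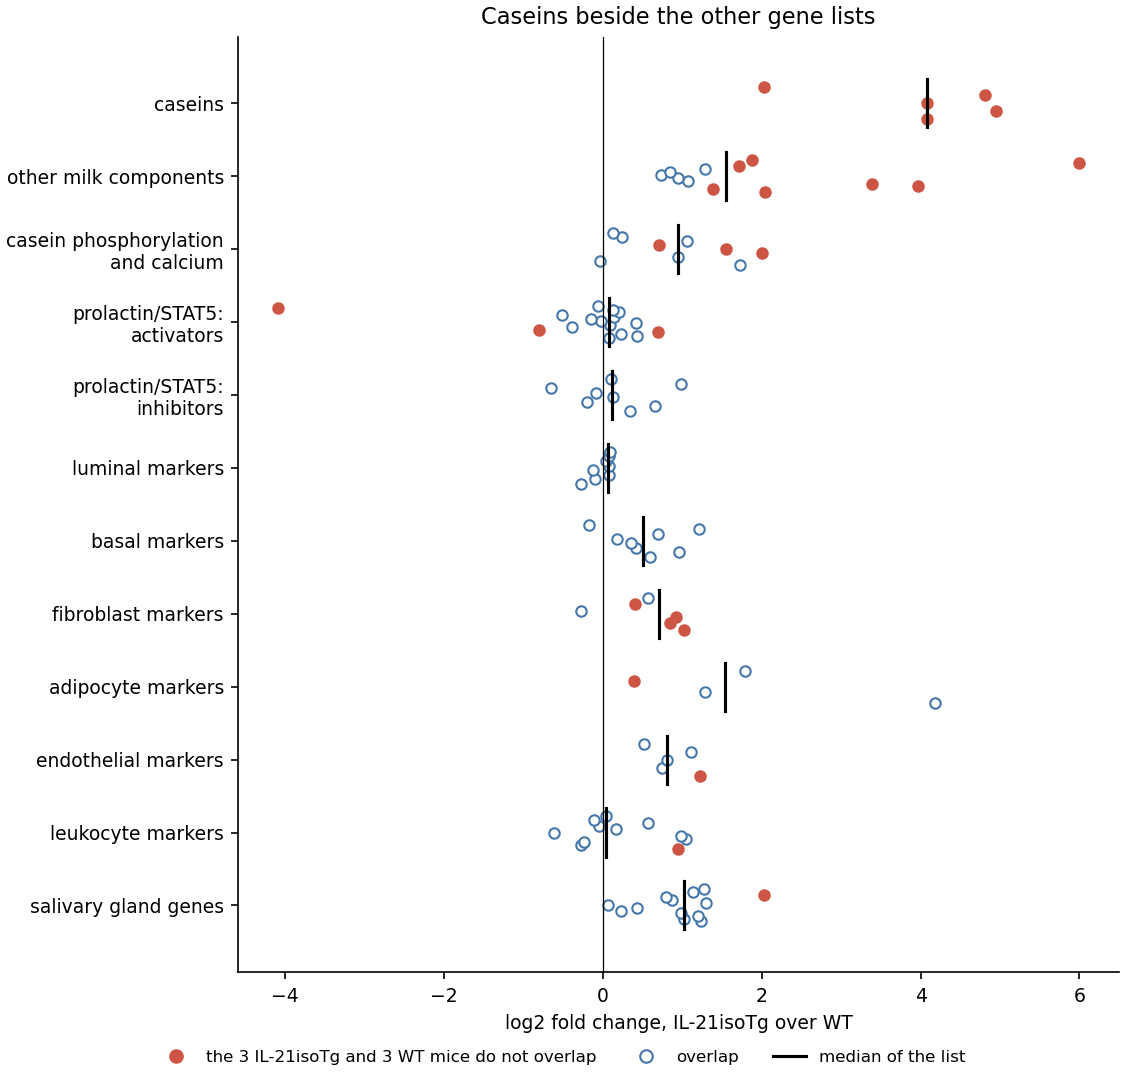
Log2 fold change (IL-21isoTg over wild-type) of each tested member of all 12 gene lists; filled points are genes whose 3 IL-21isoTg and 3 wild-type mice do not overlap and bars are the median of a list. The medians are 4.08 for the caseins, 1.55 for other milk components, 0.94 for casein phosphorylation and calcium genes, 0.08 and 0.11 for activators and inhibitors, and 0.06 and 0.50 for luminal and basal markers. They are 0.71 for fibroblast, 1.54 for adipocyte, 0.80 for endothelial and 0.04 for leukocyte markers, and 1.02 for salivary gland genes.

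Cell type markers were read in the same libraries. Of 8 luminal markers, 0 had an unadjusted p under 0.05, with a median log2 fold change of 0.06 and a summed level of 6249 to 8419 CPM in wild-type and 5559 to 9703 CPM in IL-21isoTg MECs. Of 8 basal markers, Cnn1 and Oxtr were higher at an unadjusted p under 0.05, and the summed level overlapped, with 1727 to 2103 against 1964 to 3295 CPM. The 6 fibroblast markers summed to 1929 to 3416 CPM in wild-type and 4275 to 4936 CPM in IL-21isoTg MECs, which did not overlap, and 3 of the 6 (Col1a1, Col1a2 and Col3a1) were higher at an unadjusted p under 0.05. The 6 adipocyte markers summed to 69.1 to 114 against 90.9 to 250.2 CPM and the 5 endothelial markers to 55.7 to 148.5 against 95.2 to 248 CPM, both with overlap. Of these, 2 of the 4 adipocyte markers tested (Cidec and Lipe) and 2 of the 5 endothelial markers (Pecam1 and Cdh5) were higher at an unadjusted p under 0.05. Over all genes tested, 3.19% were higher at that threshold. Cidec had 0, 6 and 15 counts in the wild-type and 382, 44 and 0 in the IL-21isoTg mice, which overlapped. The adipocyte marker Adipoq had 0, 5 and 6 counts against 207, 24 and 1. The 13 leukocyte markers summed to 19.7 to 37.4 against 26.4 to 40.7 CPM, with 0 of the 11 tested at an unadjusted p under 0.05. Of 13 salivary genes tested, all 13 had a positive log2 fold change, with a median of 1.02, and Prp2 was higher at an unadjusted p under 0.05. The median was 0.71 for the fibroblast list (5 of 6 positive), 1.54 for the adipocyte list (4 of 4 tested), 0.80 for the endothelial list (5 of 5), 0.50 for the basal list (7 of 8) and 0.04 for the leukocyte list (6 of 11 tested). No defining marker of these lists was at 0 in all mice, and the part of these cells in the casein result was not tested. In the IL-21isoTg mice the summed caseins were highest in mouse 1 and lowest in mouse 3, and so were the sums of the adipocyte markers (250.2, 156 and 90.9 CPM in mice 1, 2 and 3), the endothelial markers (247.9, 188 and 95.2 CPM) and the basal markers (3295, 2941 and 1964 CPM). The fibroblast sum was also highest in IL-21isoTg mouse 1 (4936, 4275 and 4315 CPM). Other lists ran in other orders over IL-21isoTg mice 1, 2 and 3. The luminal sum was lowest in mouse 1 (5559, 9703 and 7281 CPM). The leukocyte sum was lowest in mouse 1 and highest in mouse 3 (26.4, 30.1 and 40.7 CPM), and the salivary sum was highest in mouse 3. In the wild-type mice the summed caseins were highest in mouse 3, while the adipocyte, endothelial, basal and fibroblast sums were each highest in mouse 2.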

How the data were processed

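RNA-seq counts of MECs from 6 mice were used. Per the labels, the authors' processing notes name Trimmomatic 0.38, HISAT2 2.1.0, SAMtools 1.9 and featureCounts 1.6.3 with the build mm10. The annotation release, the strand setting and the treatment of reads with several matches are not given in the sources used here. The authors deposited raw counts per gene. A table of counts divided by size factors was not used, and of the deposited comparison table (fold changes, p-values and adjusted p-values of the genotypes) only the gene coordinates were read. Of 31286 shared identifiers, 31020 had the start and end of GENCODE M21.

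Here, genes with low counts were dropped (filterByExpr of edgeR 4.0.16 in R 4.3.3, at least 10 counts in enough mice and 15 in total), libraries were scaled by TMM, and a quasi-likelihood model with robust dispersions in the earlier form of the method was fitted with a term for genotype alone. Benjamini-Hochberg adjustment ran over 17165 genes. The standard errors given for this fit were derived from the test, as the size of the log2 fold change divided by the square root of the F statistic. DESeq2 1.42.0, limma-voom (limma 3.58.1) and edgeR's likelihood ratio test were alternatives, besides other scalings and filters, the replicate number as a block and each mouse left out. The code was tested on simulated data. Single values were compared with two-sided exact permutation tests in scipy 1.17.1, which count mice as replicates. The labels do not say whether mice were littermates.

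Named genes were the caseins, members of the gene lists, genes within 300000 bases of the casein span, Il21 and, for each casein, the 5 genes with the nearest profile (prior count 2). In long lists, the members with the largest change, the highest level or an unadjusted p under 0.05 were named first; a few others were named after their values were seen, for their known role. The caseins and lists were chosen with earlier results of these data known, and the Csn2-201 length was added after seeing the data.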

Additional observations from a re-analysis of the deposited data

How the results depend on the processing

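All 84 log2 fold changes computed for the 5 caseins under 17 other settings were positive, and 11 had an adjusted p under 0.05. With no filter on low counts the quasi-likelihood test called 2 caseins, Csn1s2b at 4.08 and Csn3 at 2.02, among 14 genes higher and 0 lower. DESeq2's Wald test called 3 caseins, Csn1s1 at 4.09, Csn1s2b at 4.11 and Csn3 at 2.03, among 72 genes higher and 9 lower. The likelihood ratio test called the same 3, at 4.08, 4.08 and 2.02, among 52 higher and 13 lower. With limma-voom 0 genes were called, and Csn2 and Csn1s2a moved to 6.76 and 7.64. Under the filter of at least 10 counts in each mouse, Csn1s2b was not tested. With counts per kilobase the share difference of Csn1s1 went from 2.98 to 0.31 percentage points and that of Csn1s2b from 0.0072 to -0.025, and with the Csn2-201 length, chosen after seeing the data, they were -0.20 and -0.031. The groups overlapped for both genes in each case. The cause of these differences was not tested.

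With 1 mouse left out, the log2 fold change was 3.61 to 5.32 for Csn1s1, 4.25 to 8.70 for Csn2, 4.38 to 9.95 for Csn1s2a, 3.75 to 4.68 for Csn1s2b and 1.66 to 2.27 for Csn3. Between 0 and 3 caseins were called, and 0 to 6 genes higher and 0 lower, all calls being made without wild-type mouse 3. The difference in the summed log2 level was 3.84 to 4.77. The share of Csn3 differed by -72.0 to -39.0 percentage points, that of Csn2 by 20.1 to 35.3 and that of Csn1s2a by 19.4 to 32.1. The shares of Csn1s1 and Csn1s2b, whose groups overlapped, differed by -0.82 to 5.11 and by -0.011 to 0.027.

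Mice with the same replicate number share only that number. The correlation of their deviations from the group means was -0.224, 0.068 and -0.062 for numbers 1, 2 and 3, and wild-type mouse 1 correlated better with IL-21isoTg mouse 3 (0.233). With the replicate block the log2 fold changes were 4.68, 7.49, 8.57, 4.20 and 1.95 in the order Csn1s1, Csn2, Csn1s2a, Csn1s2b and Csn3, and 0 genes were called. With 3 mice of each genotype the exact permutation test cannot go below 0.1. The 51.8-fold and 125-fold spread of Csn2 and Csn1s2a among wild-type mice limits what could be detected for them. That spread came mostly from wild-type mouse 3, which was also the only wild-type mouse with Il21 counts (37). The cause was not tested.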
